A study of Rattus norvegicus with 18 samples.

Results

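A set of 8 glucocorticoid-linked genes was followed through the retina and the RPE/choroid (the retinal pigment epithelium with the vascular layer beneath it) of young, aged and 8-aminoguanine (8-AG) treated rats. They were Zbtb16, Fkbp5, Tsc22d3, Sgk1, Klf9, Nr3c1, Hsd11b1 and Pdk4, taken by symbol from the deposited tables. All 8 were found among 32283 retina genes. In the RPE/choroid, 7 were found among 32552 genes, because the tables for that tissue carry no gene named Nr3c1. The list was drawn up with results of these data in view, and Zbtb16 was singled out in it. Which measured values the members were chosen by is not recorded in the rule. The levels of Zbtb16 are therefore described without a test, and the tests of the other 7 are not independent of that choice.

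The animals were Fischer 344 rats, an albino strain, labelled wild-type. They were female. Young rats were 4 months old by the labels, and a month younger in the text of the paper. Aged rats were 24 months old and drank plain water. The 8-AG rats were also 24 months old and had received 5 mg/kg of 8-AG, a purine derivative, per day in their drinking water for 8 weeks. No group was given a glucocorticoid, and no hormone level is part of these data. RNA-seq was made from 3 libraries per group and tissue, 18 in all. The retina libraries held 12283458 to 15644346 counts and the RPE/choroid libraries 28573828 to 48203050. The labels give total RNA as the molecule for the 3 retina libraries of the 8-AG group and polyA RNA for the other 15. The protocol text gives polyA capture for all retinae. The difference in label coincides with the comparison of 8-AG and aged retinae, so that, if it holds, a difference in RNA selection and one between the groups cannot be told apart there. In the RPE/choroid, young libraries 1 and 2 carry 1 label number with the letters L and R, and so do aged libraries 1 and 2. The labels do not say whether such a pair came from the eyes of 1 rat. P-values therefore measure the spread between these libraries, which may be partly technical.

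Glucocorticoids cross the cell membrane and bind the glucocorticoid receptor, the product of Nr3c1, which is held ready by heat shock proteins and moves to the nucleus to switch genes on or off. Hsd11b1 encodes the enzyme that regenerates active hormone from its inert form inside cells. Fkbp5, Tsc22d3, Sgk1, Klf9, Zbtb16 and Pdk4 are induced by the hormone in many tissues. Fkbp5 encodes a co-chaperone that lowers the receptor's affinity for hormone and so closes a feedback loop. Tsc22d3 (GILZ) encodes a mediator of the anti-inflammatory response. Sgk1 encodes a kinase that controls ion channels and transporters, Zbtb16 (PLZF) and Klf9 encode transcription factors, and Pdk4 encodes a kinase that shuts off pyruvate dehydrogenase.

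Fkbp5 and Klf9 were the tested members that passed between aged and young retinae, in opposite directions, and the stretches just upstream of their annotated starts are shown for that reason. Both come from RefSeq on build GRCr8, which is not the build of the counts, and read 5′ to 3′ on the strand of the gene. Capitals mark GGGCGG or its reverse complement CCGCCC, the core of a GC box, words that were added after the data had been seen. Fkbp5 lies at chr20:6543556-6543805 on the minus strand and Klf9 at chr1:230126396-230126645 on the plus strand, each over 250 bases ending at the base before the start.
Fkbp5: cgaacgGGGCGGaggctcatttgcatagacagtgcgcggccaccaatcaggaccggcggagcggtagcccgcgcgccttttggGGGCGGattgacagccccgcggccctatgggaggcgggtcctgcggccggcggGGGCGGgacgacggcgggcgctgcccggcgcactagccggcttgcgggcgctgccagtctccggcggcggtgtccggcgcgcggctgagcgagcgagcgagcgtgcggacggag
Klf9: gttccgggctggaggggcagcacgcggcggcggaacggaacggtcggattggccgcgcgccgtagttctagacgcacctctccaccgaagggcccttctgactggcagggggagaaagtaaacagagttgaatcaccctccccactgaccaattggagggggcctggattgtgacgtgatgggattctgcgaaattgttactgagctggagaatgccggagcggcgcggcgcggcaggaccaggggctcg

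The Fkbp5 stretch held 3 such words and was 76% G or C, whereas the Klf9 stretch held 0 and was 63.6% G or C. Over the same 250 bases the stretches of Sgk1 held 0, 2 and 4 words, those of Tsc22d3 1, 3 and 0 and those of Nr3c1 1 and 3. The stretch of Pdk4 held 1. A link between these words and the direction of a change was not tested. Promoter windows from 250 bases before to 50 after a start were at hand for 6 members, 11 windows in all. None was at hand for Zbtb16 or Hsd11b1. The words AGAACA and TGTTCT, the half-sites of the glucocorticoid response element read on both strands, occurred in 0 of the 11 windows and in 20.7% of all 33469 rat windows. The full element, AGAACA and TGTTCT separated by any 3 bases, occurred in 0 of the 11 and in 0.0149% of all windows. GC words occurred in 8 of the 11 windows and in 33.1% of all windows. Sgk1, Tsc22d3 and Nr3c1 had several windows each, so the 11 are not independent. They are too few for these counts to set the members apart from all genes. Sites farther from a start were not looked at.

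Levels are given in CPM, a gene's counts per 1000000 counts of its library, scaled by TMM over the 9 libraries of a tissue. They were compared between groups within a gene, never between genes, since no gene lengths were used. Zbtb16 (ENSRNOG00000029980) measured 7.78, 5.03 and 5.04 CPM in the 3 young retinae. It measured 19.0, 15.8 and 14.1 CPM in the 3 aged retinae. It measured 5.84, 7.40 and 8.49 CPM in the 3 retinae of the 8-AG treated rats. All 3 aged retinae lay above all 6 others, and the young and 8-AG ranges overlapped. The share of all genes with this order was not counted. Of all genes tested, 35% were without overlap between young and aged and 8.63% between 8-AG and aged retinae. The group means of Zbtb16 were 5.95 ± 1.59, 16.3 ± 2.48 and 7.24 ± 1.33 CPM (SD, n = 3) in young, aged and 8-AG retinae. On the log2 scale the aged retinae were 1.46 ± 0.19 (SE) above the young ones, a 2.75-fold difference, and the 8-AG retinae differed from the aged ones by -1.17 ± 0.17. Each SE of Zbtb16, here and below, comes from the same fit as the tests of the other genes. Since Zbtb16 was singled out with results of these data in view, its SE lends no support to a difference. The Zbtb16 levels rested on at least 67 counts in every library.

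**Figure D1:**
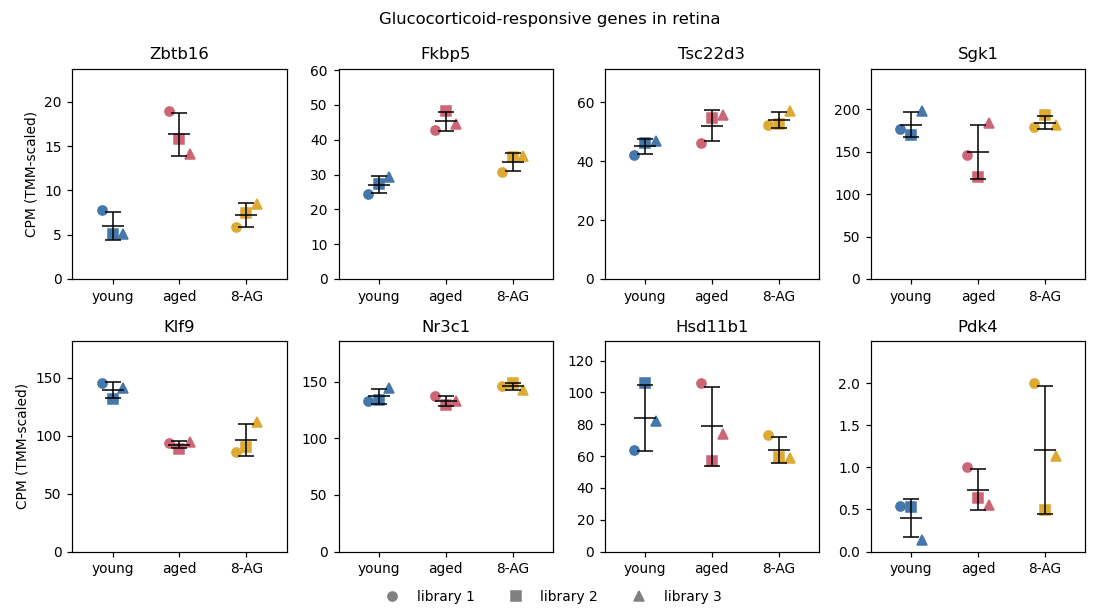
Levels of the 8 genes in 9 retina libraries, in TMM-scaled CPM on axes that start at 0. Points are libraries, with a marker shape for each library number and a color for each group, and the black lines are the mean ± SD of 3 libraries. Zbtb16 and Fkbp5 were highest in all 3 aged retinae, and Klf9 was highest in all 3 young retinae.

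Fkbp5 (ENSRNOG00000022523) had the same order of groups. Its levels were 24.5, 27.4 and 29.3 CPM in young, 42.9, 48.4 and 44.5 CPM in aged and 30.7, 35.0 and 35.2 CPM in 8-AG retinae. No 2 of the 3 groups overlapped, with the 8-AG retinae in between. Fkbp5 rose with age by 0.74 ± 0.09 on the log2 scale, a 1.67-fold change (adjusted p = 0.00056, edgeR quasi-likelihood test with Benjamini-Hochberg adjustment over all 14587 genes tested). Between 8-AG and aged retinae its log2 difference was -0.43 ± 0.09, with a 95% interval from -0.63 to -0.22, which did not pass the adjustment over 14630 genes (adjusted p = 0.58, edgeR). The comparisons with young and with 8-AG retinae share the 3 aged libraries, so a high or low aged library moves both.

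Klf9 (ENSRNOG00000014215) went the other way with age. The young retinae measured 145, 132 and 141 CPM, the aged retinae 93.8, 88.6 and 94.5 CPM, and the 8-AG retinae 86.1, 90.5 and 112 CPM. Every young retina lay above every other retina, while the aged and 8-AG retinae overlapped. Klf9 fell with age by 0.59 ± 0.06 on the log2 scale, 1.51-fold (adjusted p = 0.00031, edgeR), and its log2 difference between 8-AG and aged retinae was 0.06 ± 0.10 (adjusted p = 1.0, edgeR).

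Of the 6 members tested with age in the retina beside Zbtb16, 1 rose and 1 fell at an adjusted p under 0.05. Among all genes tested, 14.6% passed, 7.31% higher and 7.27% lower. The young and aged retinae did not overlap for these 2 members and overlapped for the other 4 tested, beside 35% of all genes without overlap. For 8-AG against aged retinae 0 of 7 tested members passed, as against 0.0205% of all genes (3 genes). By the study's rule for differentially expressed genes, a fold over 1.5 with an unadjusted P under 0.05, the same 2 members passed with age and 0 did for 8-AG, beside 8.84% and 0.957% of all genes. Klf9 was close to the 1.5-fold limit and fell short of it, at -0.56 on the log2 scale, without young library 1 or without aged library 2. At an unadjusted P alone Tsc22d3 joined these 2 with age, beside 29.2% of all genes, and Fkbp5 was the 1 member of 7 for 8-AG, beside 3.66%. Fkbp5 and Nr3c1 were the 2 tested members without overlap between 8-AG and aged retinae, beside 8.63% of all genes.

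The receptor gene Nr3c1 varied least of the 8 in the retina. It was counted there under 2 identifiers (ENSRNOG00000014096 and ENSRNOG00000048800), the second with 16% of the reads. Its levels were 133, 134 and 144 CPM in young, 137, 129 and 132 CPM in aged and 146, 148 and 143 CPM in 8-AG retinae. The highest library exceeded the lowest 1.15-fold. The log2 difference was -0.04 ± 0.06 with age and 0.13 ± 0.07 between 8-AG and aged retinae (adjusted p = 0.69 and 1.0, edgeR).

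Hsd11b1, the enzyme of local hormone supply, spread widely within each group. Its levels were 64.1, 106 and 82.3 CPM in young, 106, 56.8 and 73.9 CPM in aged and 73.4, 59.6 and 58.8 CPM in 8-AG retinae. The groups overlapped in both comparisons, and the log2 differences were -0.09 ± 0.31 and -0.30 ± 0.24 (adjusted p = 0.88 and 1.0, edgeR). The latter ranged from -0.49 without aged library 2 to -0.03 without aged library 1.

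Tsc22d3, Sgk1 and Pdk4 did not pass in either retina comparison. Tsc22d3 measured 42.1, 46.1 and 46.9 CPM in young, 46.1, 54.6 and 55.7 CPM in aged and 52.3, 52.5 and 57.2 CPM in 8-AG retinae. Young and aged retinae touched at about 46 CPM, and the log2 difference with age was 0.21 ± 0.09 (adjusted p = 0.13, edgeR), or 0.29 with an adjusted p of 0.032 without aged library 1. Sgk1 measured 177, 170 and 198 CPM in young, 146, 120 and 183 CPM in aged and 179, 193 and 181 CPM in 8-AG retinae. Aged library 3 alone among the aged retinae lay inside the young range, and the log2 difference with age was -0.28 ± 0.15 (adjusted p = 0.30, edgeR), or -0.45 with an adjusted p of 0.030 without that library and -0.14 without aged library 2. Between 8-AG and aged retinae the log2 differences were 0.05 ± 0.09 for Tsc22d3 and 0.30 ± 0.14 for Sgk1 (adjusted p = 1.0 for both, edgeR), the latter from 0.16 without aged library 2 to 0.46 without aged library 3. Pdk4 was near the limit of counting, with 2 to 26 counts per retina library. It measured 0.54, 0.53 and 0.14 CPM in young, 1.01, 0.64 and 0.55 CPM in aged and 2.0, 0.49 and 1.14 CPM in 8-AG retinae. It did not pass the filter on low counts for the age comparison and had a log2 difference of 0.73 ± 0.50 between 8-AG and aged retinae (adjusted p = 1.0, edgeR), or 0.19 without 8-AG library 1.

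**Figure D2:**
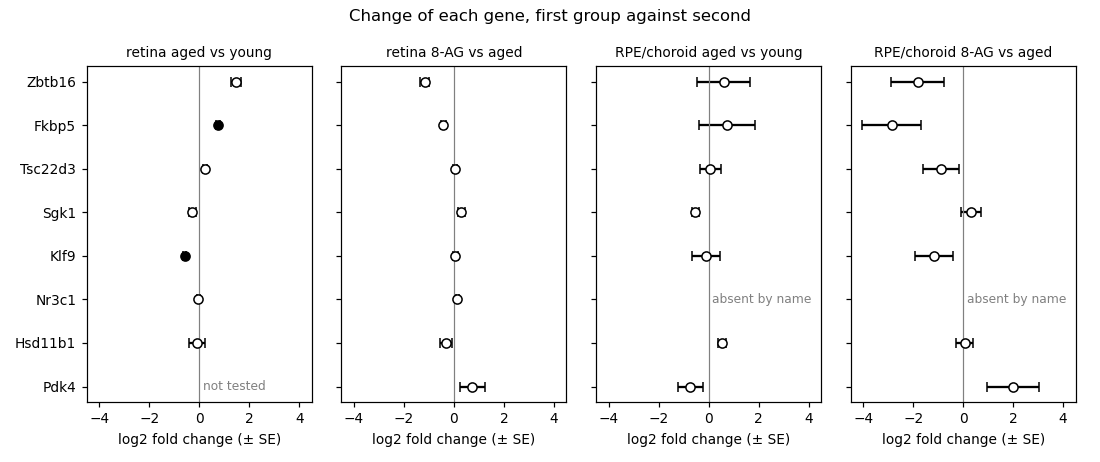
Log2 fold change of each gene with its standard error (bars) in 4 comparisons of 3 against 3 libraries, the first group named against the second. Filled points passed an adjusted p under 0.05 (Fkbp5 and Klf9 in aged against young retina). Zbtb16 was not tested and is drawn open, and its bars come from the same fits and are no test of it. The bars in the RPE/choroid are wider for most genes than those in the retina.

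The makeup of the retina libraries moved between groups as well. In bulk samples, fewer cells of a type cannot be told apart from less RNA per cell. Rod markers summed to 58254 to 63452 CPM in young, 36757 to 41594 CPM in aged and 37161 to 49341 CPM in 8-AG retinae, and 11 of 14 fell with age. Microglia and macrophage markers summed to 44.9 to 46.3 CPM in young, 136 to 233 CPM in aged and 151 to 163 CPM in 8-AG retinae, and 11 of 11 tested rose with age. No marker of either list was at 0. Mueller glia markers summed to 5774 to 6158 CPM in young, 5381 to 5536 CPM in aged and 5353 to 5746 CPM in 8-AG retinae. Of the 7, 2 rose and 2 fell with age. Every young retina lay above all 6 others in this sum, as for Klf9, and also in the sums of rod markers and immediate early genes. In the Mueller glia sum this order rests on Glul, whose fall with age was larger than that of the sum. Glul measured 2590 to 2773 CPM in young, 1740 to 2145 CPM in aged and 1752 to 2091 CPM in 8-AG retinae. Lens crystallin and other lens markers reached 2866 and 6401 CPM in young libraries 1 and 2 and 1773 CPM in 8-AG library 1, against 13.9 to 158 CPM in the other 6. Immediate early genes, which respond to stimulation and handling, summed to 367 to 1260 CPM in young, 106 to 130 CPM in aged and 111 to 122 CPM in 8-AG retinae. Surface epithelium markers summed to 9.12 to 61.8 CPM in young, 11.5 to 17.2 CPM in aged and 31.6 to 111 CPM in 8-AG retinae, without overlap between 8-AG and aged. In 8-AG against aged retinae 5 of the 7 epithelial markers tested were higher by a fold over 1.5 with an unadjusted P under 0.05, and none passed the adjustment in edgeR. Pigment epithelium markers summed to 340 to 433 CPM in young, 266 to 454 CPM in aged and 393 to 581 CPM in 8-AG retinae. For 8-AG against aged, 10 of 10 had a log2 difference above 0 with a median of 0.74, and none passed in edgeR. With age, 8 of 10 had a difference above 0 with a median of 0.83, and 1 fell. Endothelial markers summed to 580 to 766 CPM over all 9 retinae, with a median log2 difference of 0.57 over 9 markers with age, of which 8 were above 0 and 1 rose, and of -0.19 for 8-AG, with none passing in edgeR. Over all 9 retinae the sums were 58.7 to 119 CPM for melanocytes and Schwann cells, 6.23 to 21.1 CPM for striated muscle, 21.1 to 38.6 CPM for adipocytes and 1503 to 1784 CPM for clock genes. The part of these differences in the levels of Zbtb16, Fkbp5 and Klf9 was not tested.

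Further genes known to answer glucocorticoids, none of them a member, showed no common direction with age in the retina. Of 29 tested, 9 rose and 6 fell, beside 7.31% and 7.27% of all genes, and the median log2 difference was 0.04, against 0.00 over all genes tested. Dusp1, a phosphatase that ends MAP kinase signaling, fell by 1.12 ± 0.08 on the log2 scale, from 36.4, 33.8 and 36.9 CPM in young to 15.8, 16 and 17.2 CPM in aged retinae. The metal-binding metallothionein gene Mt2A rose by 2.98 ± 0.25, from 2.31, 2.18 and 1.63 CPM to 15.7, 20.9 and 11.6 CPM. The transcription factor genes Cebpd and Cebpb rose by 2.35 ± 0.27 and 1.74 ± 0.29. Glul, the glutamine synthetase gene that is also a Mueller glia marker, fell by 0.42 ± 0.08 (adjusted p between 6.6e-05 and 0.0090 for the 5, edgeR). These 5 calls held with each library left out, a setting added for the listed genes after the data had been seen.

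**Figure D3:**
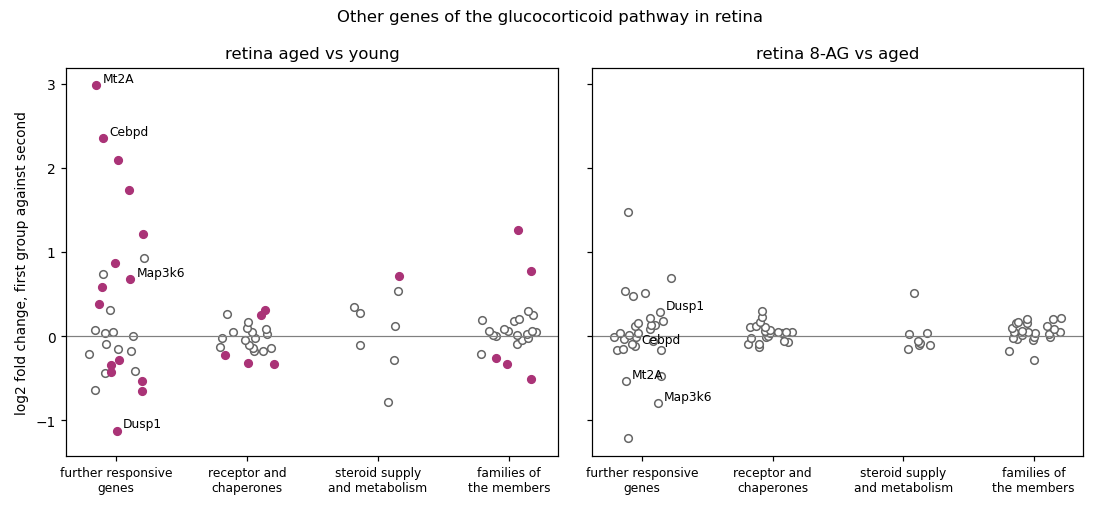
Log2 fold changes of genes from 4 lists around the glucocorticoid pathway in retina, aged against young (left) and 8-AG against aged (right). Each point is a gene, spread sideways at random, and filled points passed an adjusted p under 0.05. On the left 14 genes rose and 12 fell, and on the right no gene passed.

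Genes of the receptor's partners and of hormone supply were counted in the same way. Among 21 tested receptor, chaperone and coregulator genes 2 rose and 3 fell with age, beside 7.31% and 7.27% of all genes. The chaperone gene Hsp90ab1 rose by 0.25 ± 0.06 and the co-chaperone gene Bag1 by 0.31 ± 0.08, while the coactivator genes Ncoa1, Ep300 and Ncoa2 fell by 0.32, 0.33 and 0.23 on the log2 scale (adjusted p 0.0053 to 0.026, edgeR). Among 8 steroid supply and metabolism genes 1 rose, the transporter gene Abcb1b, by 0.71 ± 0.14 (adjusted p = 0.0084, edgeR). Among 23 relatives and direct partners of the members 2 rose and 3 fell, beside the same shares of all genes. These were Sgk3, a relative of Sgk1 (1.26), Klf4, a relative of Klf9 (0.77), Ndrg1, a substrate of the SGK1 kinase (-0.51), Tsc22d2 (-0.26) and the pyruvate dehydrogenase phosphatase gene Pdp2 (-0.33), with adjusted p values from 0.0011 to 0.048 in edgeR. With each library left out the calls of Ncoa1, Abcb1b and Ndrg1 held. That of Ep300 was lost without young library 2 (adjusted p = 0.062, edgeR). Those of Hsp90ab1, Bag1, Ncoa2, Sgk3, Klf4 and Tsc22d2 were lost without 1 or another library, with adjusted p up to 0.11, and that of Pdp2 was lost without any of the 6, with adjusted p from 0.075 to 0.17 in edgeR. Their log2 differences moved by less than 1.5 times.

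None of the 81 genes of the 4 lists tested between 8-AG and aged retinae passed the adjustment, beside 0.0205% of all genes. By the study's rule 1 of the 29 responsive genes passed, Map3k6, which was lower, and 0 of the other lists did, beside 0.957% of all genes. Map3k6, which encodes a kinase of the stress response, had the smallest p of the responsive genes in this comparison. It measured 4.39, 4.73 and 4.22 CPM in young, 6.60, 8.04 and 6.58 CPM in aged and 4.53, 3.74 and 3.94 CPM in 8-AG retinae. All 3 aged retinae lay above all 6 others, as for Zbtb16, an order that was not counted over all genes. Map3k6 rose with age by 0.67 ± 0.16 (adjusted p = 0.020, edgeR), a call lost without any 1 young library or aged library 2 (0.57 to 0.72, adjusted p up to 0.069, edgeR), and differed by -0.80 ± 0.17 between 8-AG and aged retinae (adjusted p = 0.64, edgeR). The next smallest p values in that list belonged to Dusp1 and Mt2A, with log2 differences of 0.29 and -0.53. Among the receptor partners the smallest belonged to Hspa8 (0.30), St13 (0.16) and Hsp90aa1 (0.23), all chaperone or co-chaperone genes. Among the supply genes they belonged to Crh (0.51), H6pd (-0.15) and Por (-0.10), and among relatives of the members to Pdp1 (0.22), Pdha1 (0.17) and Pdk2 (0.16). With a library left out Mt2A went to -0.29, Hsp90aa1 to 0.12, H6pd to -0.06, Por to -0.02 and Pdk2 to 0.07, while Crh ranged from 0.32 to 0.79.

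In the RPE/choroid the libraries of a group differed widely from each other. The pigment epithelium markers were at 6102 to 18274 CPM in all 9 libraries, with none at 0, and at 266 to 581 CPM in the retinae. Rod markers ranged from 629 to 56245 CPM and striated muscle markers from 21.5 to 55428 CPM. The 8-AG library 1 stood apart, with the most rod and muscle signal, 637 CPM of endothelial markers against 3490 to 7441 CPM in the other 8, and 831 CPM of melanocyte and Schwann cell markers against 6284 to 16569 CPM. Its surface epithelium markers summed to 1546 CPM against 107 to 449 CPM in the other 8, and its microglia and macrophage markers to 446 CPM against 1249 to 2260 CPM. Over all 9 libraries the sums were 6304 to 13181 CPM for Mueller glia, 46.7 to 184 CPM for adipocytes, 19.9 to 746 CPM for lens and 224 to 997 CPM for immediate early genes. The differences between 8-AG and aged RPE/choroids are given with and without 8-AG library 1.

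Zbtb16 measured 51.0, 14.6 and 14.1 CPM in young RPE/choroids. It measured 52.9, 64.1 and 3.05 CPM in aged RPE/choroids. It measured 6.05, 18.2 and 9.30 CPM in RPE/choroids of 8-AG treated rats. Aged library 3 was the lowest of all 9 and aged libraries 1 and 2, which share a label number, were the highest, so the groups overlapped. The log2 difference was 0.60 ± 1.06 with age and -1.82 ± 1.05 between 8-AG and aged. With a library left out, the first ranged from 0.09 without aged library 2 to 1.48 without young library 1. The second ranged from -2.37 without aged library 3 to -1.30 without aged library 2, and was -1.54 without 8-AG library 1. With replicate number as a block the 2 differences were 0.02 and -1.24, although these numbers pair no libraries of different groups by label.

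Fkbp5 followed the same libraries, with 191, 62.9 and 26.3 CPM in young, 213, 240 and 12.9 CPM in aged and 8.50, 43.0 and 12.4 CPM in 8-AG RPE/choroids. The highest library exceeded the lowest 28.3-fold. The log2 difference was 0.75 ± 1.13 with age and -2.85 ± 1.18 between 8-AG and aged, the latter with a 95% interval from -5.78 to 0.07 (adjusted p = 1.0 for both, edgeR). With a library left out the first ranged from 0.28 without young library 3 to 1.80 without young library 1. It was 0.34 with replicate number as a block, which again pairs no libraries by label. The second ranged from -3.87 without 8-AG library 2 to -2.38 without aged library 2, and was -2.49 without 8-AG library 1.

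Klf9 and Tsc22d3 were lowest in the same 3 libraries. Klf9 measured 279, 173 and 178 CPM in young, 256, 266 and 61.5 CPM in aged and 39.3, 163 and 54.0 CPM in 8-AG RPE/choroids. Tsc22d3 measured 1009, 835 and 1023 CPM in young, 1134, 1419 and 446 CPM in aged and 190, 943 and 470 CPM in 8-AG RPE/choroids. For both genes the aged library 3 and the 8-AG libraries 1 and 3 were the 3 lowest. The log2 differences with age were -0.10 ± 0.56 for Klf9 and 0.07 ± 0.42 for Tsc22d3, and between 8-AG and aged they were -1.17 ± 0.77 and -0.90 ± 0.71 (adjusted p = 1.0 for all 4, edgeR). The last 2 ranged from -2.04 and -1.59 without 8-AG library 2 to -0.84 and -0.50 without 8-AG library 1.

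**Figure D4:**
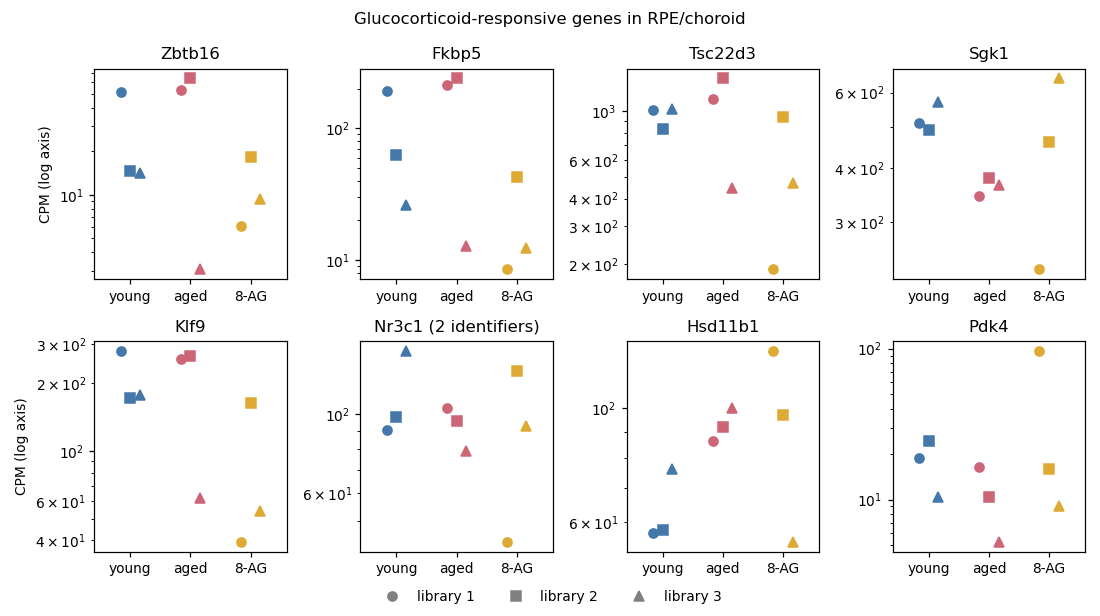
Levels of the 8 genes in 9 RPE/choroid libraries, in TMM-scaled CPM on logarithmic axes. Points are libraries, with a marker shape for each library number. Nr3c1 is the sum of the 2 identifiers that carry this gene in the retina. For Zbtb16, Fkbp5, Tsc22d3 and Klf9 the aged library 3 lay far below aged libraries 1 and 2.

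The 3 low libraries had the 3 lowest sums of endothelial markers, 3490 CPM in aged library 3, 637 CPM in 8-AG library 1 and 3968 CPM in 8-AG library 3, against 4680 to 7441 CPM in the other 6. They also had the 3 lowest sums of clock genes, 862, 1056 and 708 CPM in the same order, against 1221 to 1535 CPM. The pigment epithelium markers summed to 9575 CPM in aged library 3, 6102 CPM in 8-AG library 1 and 18274 CPM in 8-AG library 3, the last being the highest of all 9. Rod markers summed to 17110, 56245 and 901 CPM in the same order. In the 3 libraries highest in Zbtb16 and Fkbp5 (aged 2, aged 1 and young 1) rod markers summed to 629, 11861 and 18419 CPM. Young libraries 1 and 2, which share a label number, measured 51.0 and 14.6 CPM of Zbtb16, while their rod sums were 18419 and 20365 CPM. In those 2 libraries the muscle sums were 21.5 and 5147 CPM. Their part in the levels was not tested.

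Sgk1 and Hsd11b1 had another order of libraries, with 8-AG library 3 the highest for Sgk1 and 8-AG library 1 the highest for Hsd11b1. Sgk1 measured 511, 491 and 571 CPM in young, 345, 380 and 365 CPM in aged and 232, 460 and 649 CPM in 8-AG RPE/choroids. Every aged library lay below every young library, and the log2 difference with age was -0.53 ± 0.13, with a 95% interval from -0.85 to -0.21 (adjusted p = 1.0, edgeR). Endothelial markers also lay lower, with sums of 5651 to 7441 CPM in young and 3490 to 5015 CPM in aged RPE/choroids. All 8 tested had a log2 difference below 0, with a median of -0.43, and none passed in edgeR. Their part in the level of Sgk1 was not tested. Hsd11b1 measured 57.1, 57.7 and 76.1 CPM in young, 86.4, 91.9 and 100.2 CPM in aged and 130, 97.2 and 54.8 CPM in 8-AG RPE/choroids. Every aged library lay above every young library, with a log2 difference of 0.54 ± 0.15 and a 95% interval from 0.18 to 0.91 (adjusted p = 1.0, edgeR). These were the 2 of 7 members whose young and aged libraries did not overlap, beside 7.19% of all 16047 genes tested. Between 8-AG and aged RPE/choroids the log2 differences of Sgk1 and Hsd11b1 were 0.31 ± 0.39 and 0.05 ± 0.35, or 0.60 and -0.30 without 8-AG library 1, and 0 of 7 members were without overlap, beside 3.99% of all 16257 genes.

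Pdk4 was highest in 8-AG library 1, the library with the most rod, muscle and surface epithelium signal, whose part was not tested. It measured 18.7, 24.3 and 10.5 CPM in young, 16.4, 10.5 and 5.24 CPM in aged and 96.8, 15.9 and 9.02 CPM in 8-AG RPE/choroids. The log2 difference between 8-AG and aged was 1.99 ± 1.03 with this library and 0.21 without it, and the difference with age was -0.73 ± 0.50 (adjusted p = 1.0, edgeR). The latter ranged from -1.19 without aged library 1 to -0.40 without aged library 3. The 2 identifiers that carry Nr3c1 in the retina are listed under other names in the RPE/choroid tables and were not counted as a member. Their sum was 90.3, 98.2 and 151 CPM in young, 104, 95.8 and 78.7 CPM in aged and 43.8, 133 and 92.8 CPM in 8-AG RPE/choroids. The groups overlapped in both comparisons.

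In both RPE/choroid comparisons 0 of the 6 members tested beside Zbtb16 and 0% of all genes passed an adjusted p under 0.05 in edgeR. By a fold over 1.5 with an unadjusted P under 0.05, 0 members passed, beside 1.35% of all genes with age and 1.65% for 8-AG. At an unadjusted P alone Sgk1 and Hsd11b1 passed with age, 2 of 6, and 0 of 6 did for 8-AG, beside 2.13% and 1.69% of all genes. DESeq2 called 29 and 81 genes at the adjusted threshold, 0 of them members. None of the list genes passed the adjustment in edgeR. By the study's rule Ncoa3 alone of 21 receptor partners passed with age, lower, and Plin4 alone of 31 responsive genes for 8-AG, higher. With age, the smallest p values among the responsive genes belonged to Mt2A (log2 difference 0.99), Dusp1 (-0.89) and Zfp36 (-1.03). Those among the other lists belonged to Ncoa3 (-1.47), Med1 (-0.31) and Ncoa1 (0.16), to Star (-0.54), Cyp11a1 (-0.38) and Srd5a1 (0.32), and to Nedd4l (-0.25), Pdk1 (-0.23) and Tsc22d4 (0.60). Dusp1 measured 239, 192 and 541 CPM in young and 178, 154 and 195 CPM in aged RPE/choroids, and Zfp36 60.2, 60.4 and 172 CPM and 47.7, 61.7 and 34.1 CPM. Without young library 3 their differences were -0.31 and -0.35, and that library also had the highest sum of immediate early genes, 997 CPM against 224 to 623 CPM in the other 8. Their part was not tested. With 1 library or another left out, every one of these 12 differences other than that of Ncoa3 (-1.70 to -1.22) moved by more than 1.5 times, Mt2A to 0.63 and Srd5a1 to 0.04. The coactivator gene Ncoa3 measured 102, 53.5 and 83.8 CPM in young and 35.2, 33.0 and 17.9 CPM in aged RPE/choroids, without overlap. Between 8-AG and aged, the smallest p values belonged to Plin4 (3.27), Cebpb (-1.97) and Mt2A (-0.82), to Ncor1 (-0.38), Ncoa2 (0.72) and Ep300 (-0.36), to Abcb1b (0.64), Pomc (0.70) and Hsd11b2 (-0.54), and to Zbtb32 (1.58), Pdk2 (1.10) and Klf13 (-1.54). Without 8-AG library 1 these were 1.26, -1.74 and -0.65, then -0.40, 0.05 and -0.24, then 0.78, 0.13 and -0.75, and 1.78, 0.65 and -1.25. None passed, and the differences of Plin4, Ncoa2, Pomc and Pdk2 shrank by more than 1.5 times. Without aged library 2 Cebpb, Mt2A and Klf13 were at -1.07, -0.47 and -0.92. Without 8-AG library 3 Abcb1b and Zbtb32 were at 0.34 and 0.85, and without aged library 1 Hsd11b2 was at -0.31. Plin4, a lipid droplet gene, measured 9.69 CPM in 8-AG library 1 and 0.08 to 1.67 CPM in the other 8.

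Whether a gene changed differently in the 2 tissues was tested as a tissue by group term over 12 libraries. With age, the change in the RPE/choroid minus that in the retina was, on the log2 scale, -0.86 ± 1.2 for Zbtb16, 0.00 ± 1.21 for Fkbp5, 0.48 ± 0.61 for Klf9 and -0.15 ± 0.46 for Tsc22d3. It was -0.26 ± 0.21 for Sgk1 and 0.62 ± 0.33 for Hsd11b1. It was -1.62 ± 0.80 for Pdk4, which passed the filter of this fit but not that of the retina alone. There it rests on 2 to 7 counts in young and 8 to 13 counts in aged retinae. With a library left out, the difference of Hsd11b1 (0.43 to 0.89) moved by less than 1.5 times, Klf9 ranged from 0.19 to 0.91 without RPE/choroid aged libraries 2 and 3, and Sgk1 from -0.40 to -0.10 without retina aged libraries 2 and 3. For 8-AG against aged it was -0.65 ± 1.12 for Zbtb16, -2.43 ± 1.21 for Fkbp5, -1.23 ± 0.82 for Klf9 and -0.95 ± 0.75 for Tsc22d3. It was 0.01 ± 0.44 for Sgk1, 0.33 ± 0.43 for Hsd11b1 and 1.21 ± 1.26 for Pdk4. With a library left out Zbtb16 ranged from -1.27 without RPE/choroid 8-AG library 2 to -0.14 without RPE/choroid aged library 2, and Fkbp5 from -3.52 to -1.96. Klf9 and Tsc22d3 ranged from -2.17 and -1.69 without RPE/choroid 8-AG library 2 to -0.89 and -0.55 without RPE/choroid 8-AG library 1. Without this last library Zbtb16 and Fkbp5 were at -0.36 and -2.05, Hsd11b1 at 0.01 and Pdk4 at -0.51. None of the 6 members tested with age or the 6 tested for 8-AG passed (lowest adjusted p = 0.67, for Pdk4 with age, edgeR), and 27 of 16790 genes and 0 of 16913 genes did.

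The genes whose levels ran most like those of Zbtb16 were sought over the 9 libraries of each tissue, by the root mean square difference of log2 CPM after centering each gene on its own mean. The libraries share group, depth and tissue makeup, so likeness describes these libraries only. The members were listed with results of these data in view, so their ranks are no separate evidence that they run together. In the retina the nearest of 14098 genes were Oas1b, Cdc25c, Tradd, Fancd2 and Havcr2, at 0.34 to 0.37 log2 units. Fkbp5 was 28th at 0.41 and Map3k6, already singled out for the order of its retina levels, 39th at 0.42, and Klf9 was 13263rd at 0.84. In the RPE/choroid the nearest of 14593 genes were Tcf15, Xxylt1, Akap7, Otulin and Gxylt2, at 0.42 to 0.53 units. There Map3k6 was 6th at 0.54, Fkbp5 21st at 0.65, Klf9 27th at 0.67 and Tsc22d3 104th at 0.86, while Zbtb16 itself spread by 1.36 units around its mean, against 0.64 units in the retina. The genes most like Fkbp5 were Fkbp2, Gins4, Tbata, Kif4a and Syt17 in the retina, at 0.11 to 0.12 units. Those in the RPE/choroid were Hes1, Gas1, Tmem158, AABR07019083.1 and Zbtb16, at 0.41 to 0.65 units. Seen from Fkbp5, Zbtb16 was only 10477th of 14098 genes in the retina, at 0.41 units, more than the 0.31 units by which Fkbp5 itself spread. Klf9 thus ranked near Zbtb16 in the RPE/choroid and far from it in the retina.

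**Figure D5:**
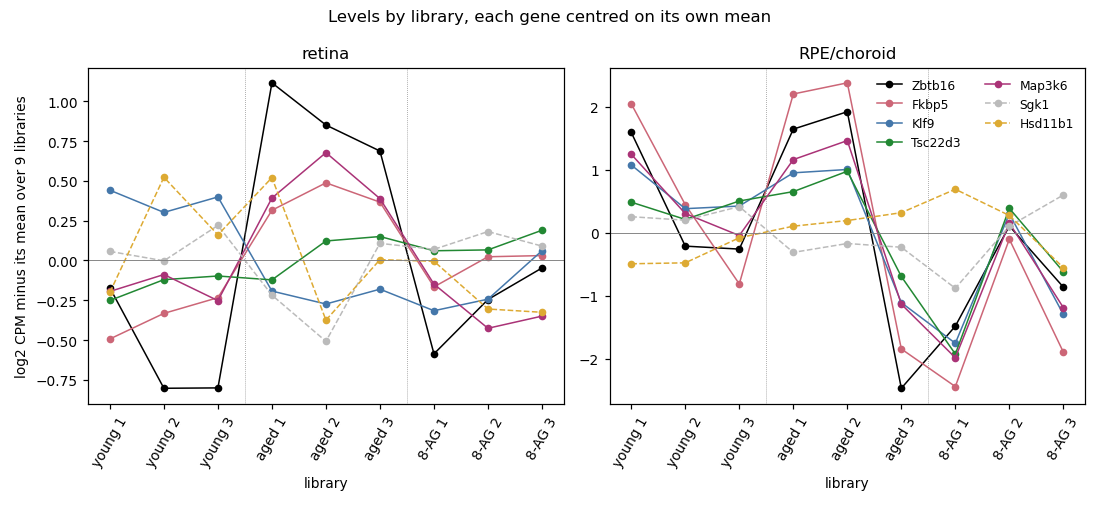
Levels by library in retina (left) and RPE/choroid (right), as log2 CPM minus the gene's own mean over 9 libraries. Lines join the libraries of a gene only to guide the eye, and dotted lines divide the groups. Zbtb16, Fkbp5 and Map3k6 were highest in the aged retinae, and in the RPE/choroid Zbtb16, Fkbp5, Klf9, Tsc22d3 and Map3k6 were all below their means in aged library 3 and in 8-AG libraries 1 and 3. Of the dashed genes, Hsd11b1 was above its mean in aged library 3 and 8-AG library 1, and Sgk1 was above its mean in 8-AG library 3.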

How the data were processed

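Libraries were made after polyA capture for retina by the extract protocol, although the molecule label gives total RNA for the 8-AG retinae. RPE/choroid RNA, which was scarcer, went through polyA selection with a step that favors full-length transcripts, so levels of the members were not compared between tissues. For retina the authors deposited expected counts from RSEM, which were rounded (11.5% were not whole). RPE/choroid values are raw read counts deposited by the authors. A TMM-scaled signal table deposited by the authors paired retina symbols with identifiers by matching values (15046 symbols). Nr3c1 and Tsc22d3 each equalled the sum of 2 identifiers and were merged in the retina. The submitters' processing notes name Bowtie2 2.1.0, RSEM 1.2.15, edgeR and Rnor_6.0, with no role for each. The authors' own comparison tables hold fold changes with p-values, and these values were not used.

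Each pair of groups was fitted on its 6 libraries in edgeR 4.0.16 (filterByExpr, TMM, robust quasi-likelihood test) under R 4.3.3, with Benjamini-Hochberg adjustment over all genes and a threshold of 0.05. The study's own rule, a fold over 1.5 with an unadjusted P under 0.05, was counted as well. The scripts were tested on simulated counts. Alternatives were RLE scaling, DESeq2 1.42.0, no filter, a minimum of 10 counts per library, a joint fit of the 3 groups, a block for replicate number, leaving out each library (for the listed genes chosen after the data had been seen) and, by tissue, unrounded counts, summed label numbers or a rod marker covariate.

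All members found in a table were named in every comparison. Of each pathway list up to 5 genes that passed with the smallest p were named, or else the 3 with the smallest p, and the 5 genes nearest to Zbtb16 and to Fkbp5 among genes with a mean of at least 1 CPM. Members and lists were chosen with earlier results of these data known. Map3k6 was followed across comparisons after its values had been seen. All 12 marker lists are given. The counts limit precision for Pdk4 in retina most. No replicate numbers pair the libraries by label.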

Additional observations from a re-analysis of the deposited data

How the results depend on the processing

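The calls of Fkbp5 and Klf9 with age in the retina held under every alternative run, with adjusted p at most 0.0048 and 0.0030, and no alternative called a member in the other 3 comparisons. Counts over all genes moved more. With age in the retina 2127 genes passed, and 1243 to 2318 did when a library was left out (2 to 3 members), the lowest being 1328 without young library 1 and 1243 without young library 2. Between 8-AG and aged retinae 3 genes passed, 18 with DESeq2, 10 without a filter, 0 with at least 10 counts in every library, and 0 to 3 with a library left out. In the RPE/choroid 0 genes passed in both comparisons, 29 and 81 with DESeq2, and 1 with age when rod markers were a covariate. The cause was not tested.

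Same-numbered libraries did not all deviate together, with correlations from -0.10 to 0.12 in the retina and -0.62 to 0.70 in the RPE/choroid. With a replicate block 1700 and 0 genes passed in the retina and 0 in the RPE/choroid, with 2 and 0 members in the retina. It turned the Tsc22d3 difference with age to -0.079 and the Hsd11b1 difference between 8-AG and aged to -0.041 in the RPE/choroid. Tsc22d3 also turned there to -0.18 with label numbers summed and to -0.12 with the rod covariate.

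Directions that turned with a library left out all belonged to differences that had not passed. In the retina these were Hsd11b1 with age (-0.37 to 0.11) and, for 8-AG, Tsc22d3 (-0.026 to 0.096) and Klf9 (-0.059 to 0.13). Those in the RPE/choroid were Tsc22d3 (-0.27 to 0.42), Klf9 (-0.40 to 0.32) and, of the listed genes, Map3k6 (-0.17 to 0.72) with age and, for 8-AG, Sgk1 (-0.064 to 0.60) and Hsd11b1 (-0.30 to 0.30). Between tissues they were Fkbp5 (-0.46 to 1.05), Tsc22d3 (-0.50 to 0.20) and Zbtb16 (-1.38 to 0.012) with age and, for 8-AG, Sgk1 (-0.36 to 0.31) and Pdk4 (-0.51 to 1.69). The Fkbp5 difference between tissues with age was also 0.073 with RLE scaling and 0.015 with at least 10 counts in every library.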
